A study of Mus musculus with 6 samples.

Results

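Aminoacyl-tRNA synthetases are the enzymes that join each amino acid to its tRNA, and 35 of their genes were followed here in sorted B-cell progenitors of old and young mice. The genes were chosen by symbol, as those named for an amino acid's tRNA synthetase that have an array probe set of their own. They make up 35 of 19938 genes with such a probe set, with 36 single-gene probe sets among them, since Iars has a second. Of these, 18 are cytosolic enzymes or their subunits, 16 are mitochondrial enzymes (symbols ending in 2), and Tarsl2 is a threonyl-tRNA synthetase paralog that is kept apart. Where a gene had more than 1 probe set, the brightest was used. Aars shares its probe set with Exosc6 and is not counted, and Dars was not analysed here.

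Pro-B and pre-B cells, sorted and pooled, came from BALB/c mice aged 24 months (old, 3 arrays) or 2 months (young, 3 arrays), and only age was compared. All mice were of that strain, and the cells of both groups were left unmanipulated. RNA input was 100 ng for each array and was amplified before hybridisation. The sort gate is not given, and neither is whether an array holds 1 mouse or several. The p-values below therefore measure only the spread between these arrays, which may be technical.

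Each synthetase recognises its own set of tRNAs and spends ATP to load them, so that the ribosome receives the amino acid that the codon calls for. In the cytosol, several of the enzymes sit in a large multisynthetase complex held together by the scaffold proteins Aimp1, Aimp2 and Eef1e1, and the others work as free enzymes. Mitochondria use a separate, nuclear-encoded set, except that Gars and Kars each supply both compartments. In B-cell progenitors, which divide rapidly when they expand, charged tRNA feeds the synthesis of the proteins of each new cell. When charging falls short, uncharged tRNA activates the kinase Gcn2, and the transcription factor Atf4 then raises amino acid transporters, amino acid synthesis and several cytosolic synthetases.

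The old arrays did not resemble each other. Over all tested probe sets, the correlation with young arrays was 0.622 to 0.643 for old replicate 1, 0.683 to 0.703 for old replicate 2 and 0.976 to 0.984 for old replicate 3, beside 0.993 to 0.996 between young arrays. The interquartile range of log2 intensity was 1.52, 1.51 and 2.44 on old replicates 1, 2 and 3 and 2.73, 2.72 and 2.89 on young replicates 1, 2 and 3. The level under which 95% of 1210 olfactory and vomeronasal receptor probe sets lay, genes with no known role in B cells, was 6.29, 6.21 and 5.02 on the old arrays and 4.75, 4.74 and 4.57 on the young arrays. It is called the receptor level below. Of 14 measured pro-B and pre-B cell markers, 6, 9 and 14 lay above it on the old arrays and 14 on each young array, and their summed intensity was 3479, 5961 and 13260 against 14620, 14060 and 13630. Of 10 neutrophil and monocyte markers, 2, 3 and 9 lay above it on the old arrays and 9, 9 and 10 on the young arrays, with sums of 1970, 4770 and 7131 against 7280, 7051 and 9262. Of 6 plasma cell markers, 0, 0 and 4 lay above it on the old arrays and 4 on each young array. The part of other cells and of signal quality in the results below was not tested. Each result is therefore given over all 6 arrays, without old replicate 3, and for old replicate 3 alone.

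Promoters were searched for the 8 letters TGATGCAA, on both strands, as the core of the element through which Atf4 and C/EBP factors are known to act. RefSeq promoters (GRCm38.p6, 250 bases before to 50 after the start) were at hand for 26 of the 35 genes. Of these 3 held the letters, which is 11.5%, against 279 of 27025 genes with such a promoter (1.03%). All 3 were cytosolic, out of 11 cytosolic genes with a promoter, and 0 of 14 mitochondrial genes held them. The isoleucyl, threonyl and tyrosyl enzymes are shown because they are the members with the letters, which stand in capitals in 30 bases of the gene's own strand.
Iars: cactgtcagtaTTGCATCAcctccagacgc
Tars: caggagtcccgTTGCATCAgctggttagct
Yars: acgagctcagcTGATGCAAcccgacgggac
The windows lie at chr13:49682126-49682155 on the plus strand for Iars, at chr15:11399655-11399684 on the minus strand for Tars and at chr4:129189895-129189924 on the plus strand for Yars. In Iars and Tars the capitals are the reverse complement of TGATGCAA, and in Yars they are TGATGCAA itself. A match describes the letters only.

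Over all 6 arrays, cytosolic synthetases had lower mean levels in old cells in 17 of 18 genes, with a median difference (old minus young, log2 intensity) of -1.26. Mitochondrial synthetases had lower means in 7 of 16 genes, with a median difference of 0.04 (-0.0702 with quantile normalization and -0.30 with median centring). The median over all tested probe sets was 0.35. At a young mean of 6 to 9 it was -1.12, against -1.26 for the 16 cytosolic genes in that range. At a young mean of 4 to 6 it was 0.55, against 0.06 for the 11 mitochondrial genes there. With quantile normalization 14 of 18 cytosolic and 9 of 16 mitochondrial means were lower, and with each array centred on its median 18 of 18 and 13 of 16. No synthetase passed the test (limma, Benjamini-Hochberg adjusted p under 0.05), and 0% of all 23410 probe sets did. The smallest adjusted p of a member was 0.101, which was also the smallest of any probe set. At an unadjusted p under 0.05, limma listed 15 of 35 members, all lower in old cells, of which 13 were cytosolic. Of all 23410 probe sets it listed 10966, and 5136 of them were lower. At a young mean of 6 to 9 it listed 3875 of 6284 probe sets as lower, and 12 of 16 cytosolic genes. All old arrays lay below all young arrays for 18 members and above them for 1, Aars2, where 22.9% of all probe sets lay wholly below and 36.1% wholly above. These shares depended on level. At a young mean of 6 to 9, 3949 of 6284 probe sets lay wholly below, and 12 of 16 cytosolic genes. At a young mean of 4 to 6, 677 of 8611 probe sets lay wholly below and 4119 wholly above, and 1 and 1 of 11 mitochondrial genes.

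**Figure D1:**
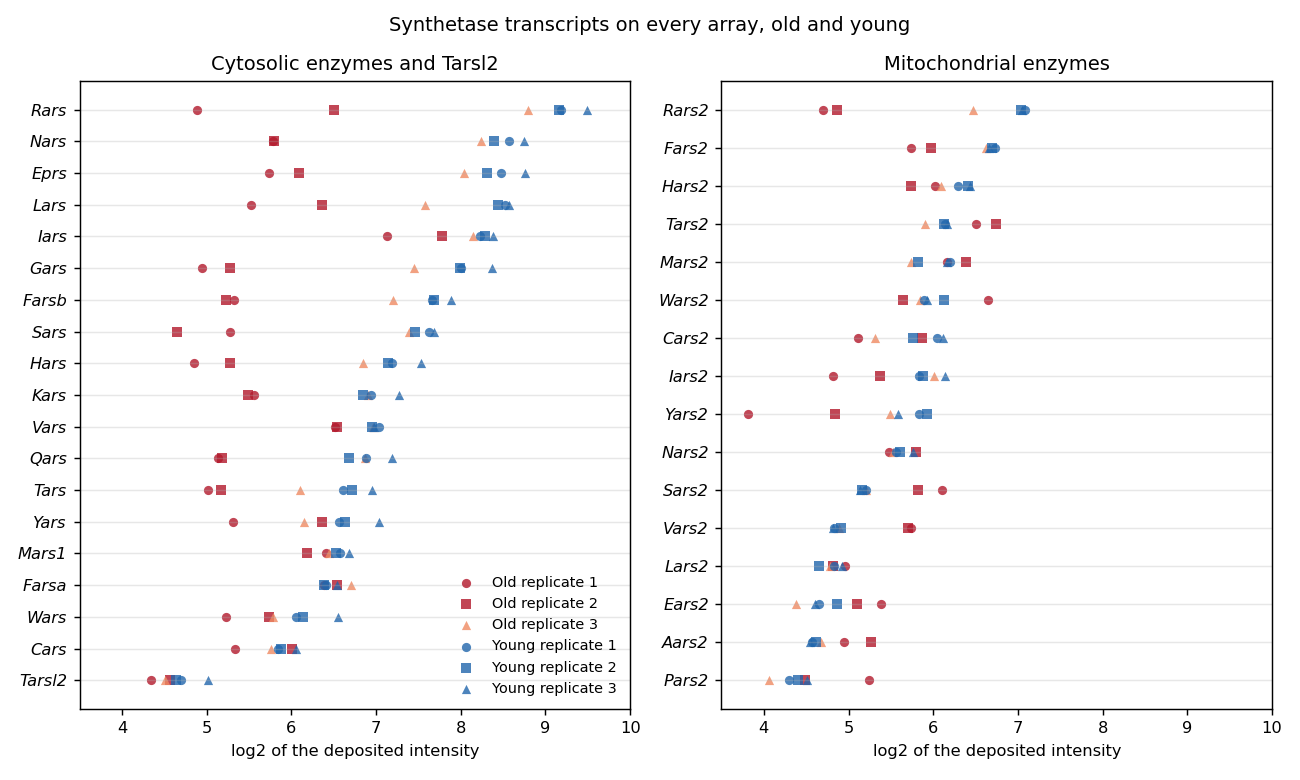
Log2 intensity of each synthetase on each of the 3 old and 3 young arrays, 1 row per gene, cytosolic enzymes and Tarsl2 in one panel and mitochondrial enzymes in the other, ordered by the young mean. For most of the brighter cytosolic genes, though less so for Iars, old replicates 1 and 2 lie far to the left of the young arrays. Old replicate 3 lies closer to them.

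Among the 7 enzymes of the multisynthetase complex that were analysed here, Eprs, Lars and Rars were bright in young cells. They were low on old replicates 1 and 2 and closer to the young level on old replicate 3. All intensities that follow are log2, in the order of replicates 1, 2 and 3. Eprs, which charges both glutamate and proline tRNA, read 5.74, 6.10 and 8.04 in old cells and 8.48, 8.30 and 8.76 in young cells. Lars, the leucyl enzyme, read 5.52, 6.36 and 7.58 in old cells and 8.52, 8.44 and 8.56 in young cells. Rars, the arginyl enzyme, read 4.88, 6.51 and 8.80 in old cells and 9.19, 9.16 and 9.49 in young cells. In all 3 genes every old array was below every young array. Eprs differed by -1.89 ± 0.59 (SE; limma adjusted p = 0.101), with means of 6.63 ± 1.24 in old cells and 8.52 ± 0.23 in young cells (SD, n = 3 each). Lars differed by -2.02 ± 0.50 (limma adjusted p = 0.101), with means of 6.49 ± 1.04 in old cells and 8.51 ± 0.06 in young cells (SD, n = 3 each).

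The other complex enzymes had smaller differences. Kars, the lysyl enzyme, read 5.56, 5.49 and 6.90 in old cells and 6.93, 6.84 and 7.28 in young cells. Qars, the glutaminyl enzyme, read 5.13, 5.18 and 6.87 in old cells and 6.89, 6.68 and 7.19 in young cells. In both, old replicate 3 lay inside the range of the young arrays. Iars, the isoleucyl enzyme, read 7.13, 7.78 and 8.15 in old cells and 8.23, 8.29 and 8.38 in young cells. Its second probe set read 5.29, 5.49 and 6.91 in old cells and 6.89, 6.92 and 6.97 in young cells, so the probe sets gave the same direction but different sizes. Mars1, the methionyl enzyme, read 6.41, 6.19 and 6.45 in old cells and 6.58, 6.53 and 6.68 in young cells. Mars1 and, by its brighter probe set, Iars had no overlap between the age groups. On the second Iars probe set, old replicate 3 lay inside the range of the young arrays. For Mars1 all 6 arrays lay within a narrow range. With quantile normalization the differences over all 6 arrays turned to 0.51 for Iars and 0.38 for Mars1.

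Of the 11 free cytosolic genes, the glycyl enzyme Gars had one of the larger differences. Gars read 4.95, 5.28 and 7.45 in old cells and 8.002, 7.99 and 8.37 in young cells. It differed by -2.23 ± 0.64 (SE; limma adjusted p = 0.101), with means of 5.89 ± 1.36 in old cells and 8.12 ± 0.21 in young cells (SD, n = 3 each). Tars, the threonyl enzyme, read 5.02, 5.17 and 6.11 in old cells and 6.60, 6.72 and 6.96 in young cells. All 3 old arrays were below the young arrays in both genes. Tars differed by -1.33 ± 0.33 (limma adjusted p = 0.101), with means of 5.43 ± 0.59 in old cells and 6.76 ± 0.18 in young cells (SD, n = 3 each).

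Phenylalanyl-tRNA synthetase is built of catalytic (Farsa) and tRNA-binding (Farsb) subunits, and their genes behaved differently on these arrays. Farsb read 5.32, 5.22 and 7.20 in old cells and 7.66, 7.68 and 7.88 in young cells. Farsa read 6.39, 6.54 and 6.71 in old cells and 6.41, 6.38 and 6.54 in young cells. Farsb lay below the young arrays on all 3 old arrays, while Farsa overlapped them and was above all of them on old replicate 3. The Farsb difference was -1.82 ± 0.53 (SE; limma adjusted p = 0.101) and the Farsa difference 0.10 ± 0.20 (limma adjusted p = 0.677). With each array centred on its median, the Farsa difference was -0.25, and with quantile normalization 0.75. The genes also differed in young mean, 6.44 for Farsa and 7.74 for Farsb. On old replicates 1 and 2 both lay within the 10th to 90th percentile of probe sets of like young level, whose medians were -0.55 and -2.18. The difference between the subunits was not tested.

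Nars, the asparaginyl enzyme, read 5.78, 5.79 and 8.24 in old cells and 8.57, 8.39 and 8.75 in young cells. Sars, the seryl enzyme, read 5.27, 4.65 and 7.39 in old cells and 7.62, 7.46 and 7.68 in young cells. Hars, the histidyl enzyme, read 4.86, 5.28 and 6.84 in old cells and 7.18, 7.15 and 7.53 in young cells. These 3 followed the pattern of Gars, with old replicate 3 closest to the young arrays. Yars, the tyrosyl enzyme, read 5.31, 6.36 and 6.14 in old cells and 6.57, 6.64 and 7.03 in young cells. Wars, the tryptophanyl enzyme, read 5.23, 5.74 and 5.78 in old cells and 6.06, 6.13 and 6.55 in young cells. In Yars and Wars, old replicates 2 and 3 were close to each other and every old array was below every young array. Yars differed by -0.81 ± 0.33 (SE; limma adjusted p = 0.104).

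Vars, the valyl enzyme, read 6.51, 6.54 and 6.96 in old cells and 7.03, 6.95 and 6.97 in young cells. Cars, the cysteinyl enzyme, read 5.34, 6.01 and 5.76 in old cells and 5.84, 5.87 and 6.06 in young cells. The age groups overlapped in both, and with quantile normalization the Vars difference turned to 0.46. Tarsl2 read 4.35, 4.56 and 4.51 in old cells and 4.70, 4.64 and 5.02 in young cells. All old arrays of Tarsl2 were below the young arrays, but only young replicate 3 was above the receptor level.

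Among the mitochondrial enzymes, the arginyl enzyme Rars2 had the largest difference over all 6 arrays and also the highest young mean. Beside probe sets of like young level it lay within the 10th to 90th percentile, both on old replicates 1 and 2 and on old replicate 3. Rars2 read 4.70, 4.87 and 6.47 in old cells and 7.08, 7.04 and 7.05 in young cells. It differed by -1.71 ± 0.47 (SE; limma adjusted p = 0.101), with means of 5.35 ± 0.98 in old cells and 7.06 ± 0.02 in young cells (SD, n = 3 each). Yars2, the tyrosyl enzyme, read 3.82, 4.84 and 5.49 in old cells and 5.83, 5.92 and 5.59 in young cells. Fars2, the phenylalanyl enzyme, read 5.74, 5.98 and 6.63 in old cells and 6.72, 6.69 and 6.66 in young cells. Hars2, the histidyl enzyme, read 6.02, 5.74 and 6.09 in old cells and 6.29, 6.41 and 6.43 in young cells. In these 4 genes all old arrays lay below all young arrays.

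Another 3 mitochondrial genes read lower on at least 1 old array without separating the groups. Iars2, the isoleucyl enzyme, read 4.82, 5.37 and 6.004 in old cells and 5.84, 5.88 and 6.14 in young cells. Cars2, the cysteinyl enzyme, read 5.11, 5.87 and 5.32 in old cells and 6.05, 5.76 and 6.12 in young cells. Nars2, the asparaginyl enzyme, read 5.48, 5.79 and 5.52 in old cells and 5.56, 5.61 and 5.76 in young cells. Cars2 was low on old replicates 1 and 3 but within the young range on old replicate 2, and differed by -0.54 ± 0.27 (SE; limma adjusted p = 0.135). Iars2 differed by -0.55 ± 0.33 (limma adjusted p = 0.189), with old replicate 3 inside the young range.

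Another 5 mitochondrial genes read higher on old replicates 1 and 2. Vars2, the valyl enzyme, read 5.73, 5.70 and 4.88 in old cells and 4.82, 4.91 and 4.82 in young cells. Sars2, the seryl enzyme, read 6.10, 5.82 and 5.20 in old cells and 5.21, 5.16 and 5.13 in young cells. Aars2, the alanyl enzyme, read 4.94, 5.27 and 4.67 in old cells and 4.57, 4.61 and 4.55 in young cells. On old replicates 1 and 2 all 3 genes were above every young array but not above the receptor level of those same arrays. Tars2, the threonyl enzyme, read 6.50, 6.74 and 5.90 in old cells and 6.13, 6.13 and 6.16 in young cells. Ears2, the glutamyl enzyme, read 5.38, 5.10 and 4.37 in old cells and 4.66, 4.86 and 4.60 in young cells. Both lay above the young arrays on old replicates 1 and 2 and below them on old replicate 3.

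The remaining 4 mitochondrial genes overlapped between the groups. Mars2, the methionyl enzyme, read 6.17, 6.39 and 5.74 in old cells and 6.20, 5.82 and 6.17 in young cells. Wars2, the tryptophanyl enzyme, read 6.65, 5.64 and 5.84 in old cells and 5.89, 6.13 and 5.92 in young cells. Lars2, the leucyl enzyme, read 4.95, 4.82 and 4.78 in old cells and 4.82, 4.65 and 4.92 in young cells. None of these 3 kept one order between the groups. Pars2, the prolyl enzyme, read 5.24, 4.48 and 4.06 in old cells and 4.29, 4.40 and 4.51 in young cells, so that its highest and its lowest value both came from old cells.

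Without old replicate 3, 20 of the 35 synthetases fell and 5 rose in old cells (limma adjusted p under 0.05), against 30.2% of all probe sets that fell and 52.2% that rose. Of those that fell, 15 were cytosolic and 5 mitochondrial (Fars2, Hars2, Iars2, Rars2 and Yars2), and the cytosolic genes that did not pass were Cars, Farsa and Mars1. All 5 that rose were mitochondrial (Aars2, Ears2, Sars2, Tars2 and Vars2). Brightness moved with this result: among probe sets with a young mean above 7, 93.9% fell, and of the cytosolic synthetases above that level 10 of 10 fell. Over all members 57.1% fell, bright and dim together.

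The receptor level limits how large these differences can be called. On old replicates 1 and 2, 11 of 18 cytosolic genes were not above it on either array, and 10 of those 11 were among the genes that fell. With the old values raised to the receptor level, a bound could be given for 13 genes that fell, cytosolic and mitochondrial, without a reading above it on either array. In array intensity, Nars was at least 5.02-fold lower, Eprs at least 4.82-fold, Gars at least 3.66-fold, Farsb at least 2.82-fold and Sars at least 2.54-fold. The bound was at least 2.06-fold for Hars, 1.75-fold for Rars2, 1.71-fold for Kars, 1.59-fold for Qars, 1.43-fold for Tars, 1.36-fold for Fars2, 1.10-fold for Hars2 and 1.0008-fold for Wars. The limma adjusted p of these 13 genes ran from 1.6e-05 (Nars) to 0.0165 (Hars2), with 0.016 for Wars. For Iars2 and Yars2, which also fell, the receptor level was above the young mean and gives no bound. Lars differed by -2.57 ± 0.25 (SE; limma adjusted p = 0.000163) and Rars by -3.58 ± 0.44 (limma adjusted p = 0.000433), and of these 2 old arrays each gene was above the receptor level on replicate 2 only. Cytosolic genes above the receptor level on both arrays were Farsa, Iars and Vars. Of these, Iars fell by 0.84 ± 0.21 (SE; limma adjusted p = 0.00809) and Vars by 0.46 ± 0.12 (limma adjusted p = 0.0117). The second Iars probe set, at 5.29 and 5.49, was not above that level on either array and differed by -1.54. Of the 5 genes that rose, Tars2 alone was above the receptor level on both arrays, and it differed by 0.48 ± 0.14 (SE; limma adjusted p = 0.0143).

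**Figure D2:**
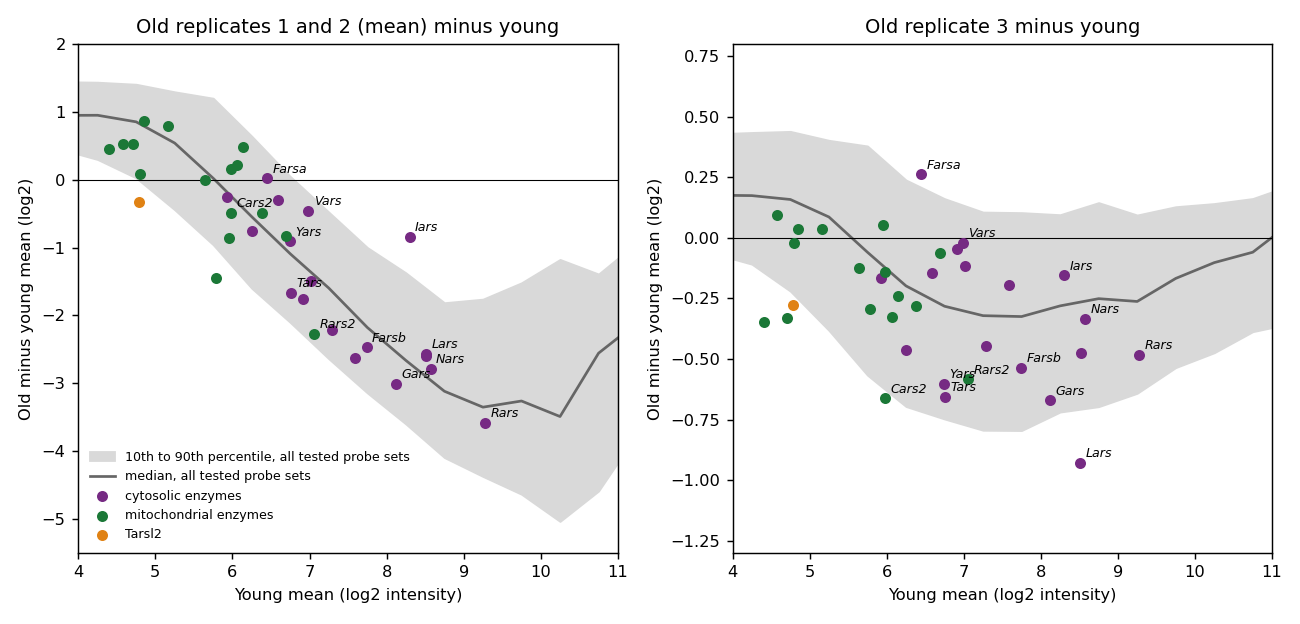
Difference from the young mean (log2) of each synthetase against its young mean (log2 intensity), for the mean of old replicates 1 and 2 on the left and for old replicate 3 on the right. The line and band give the median and the 10th to 90th percentile of all tested probe sets of like level, and 17 of 18 cytosolic and 15 of 16 mitochondrial genes lie inside the band on the left.

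Set beside probe sets of like young level (bins of 0.5), most synthetases were inside the 10th to 90th percentile on old replicates 1 and 2. Iars lay above that range by its brighter probe set, and Yars2 and Tarsl2 below it. The second Iars probe set differed by -1.54, inside the range of its own level (-2.11 to 0.05). Of the cytosolic genes 9 of 18 were below the median of their bin, and of the mitochondrial genes 9 of 16. Across the 35 members, the young mean and the difference correlated at -0.86, and over all 23410 probe sets at -0.81. These are descriptions across genes of the same arrays.

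On old replicate 3 the differences were smaller, and most were still below 0. Cytosolic genes were lower than the young mean in 17 of 18 cases with a median of -0.39, and mitochondrial genes in 12 of 16 with a median of -0.19. The median over all probe sets was 0.05. At a young mean of 6 to 9 it was -0.28, against -0.39 for the cytosolic genes in that range. At a young mean of 4 to 6 it was 0.12, against -0.12 for the mitochondrial genes there. With quantile normalization 11 of 18 cytosolic and 14 of 16 mitochondrial genes were lower. Old replicate 3 was below all 3 young arrays for 26 members, where 31.8% of all probe sets were, and above them for 2, Farsa and Aars2, where 41.7% of all probe sets were. For cytosolic genes with a young mean between 6 and 9 it was below all young arrays in 12 of 16 (75%), against 68.3% of all probe sets in that range. In bulk cells, fewer cells of a type and less RNA per cell cannot be told apart.

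The test of old replicate 3 alone takes its spread from the young arrays. It called 2 of 35 synthetases lower (5.71%), against 5.24% of all probe sets, and 0 higher, against 1.76%, so the share was near that of all probe sets. Lars fell by 0.93 ± 0.13 (SE; limma adjusted p = 0.0146), which is 1.9-fold. Rars2 fell by 0.58 ± 0.12 (limma adjusted p = 0.0381), which is 1.5-fold. Without young replicate 1 neither passed, with limma adjusted p = 0.0603 for Lars and 0.11 for Rars2. Without young replicate 3, 7 synthetases passed (20%), all lower, with Lars at 0.000727, and 16.7% of all probe sets passed. With quantile normalization Lars alone passed, at limma adjusted p = 0.0286.

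Other members with large differences on old replicate 3 missed the threshold. Gars differed by -0.67 ± 0.18 (SE; limma adjusted p = 0.0635), Tars by -0.66 ± 0.16 (limma adjusted p = 0.0556), Cars2 by -0.66 ± 0.17 (limma adjusted p = 0.057) and Yars by -0.60 ± 0.19 (limma adjusted p = 0.0997). Of these, Yars and Tars carry the Atf4 element's letters, and Gars and Cars2 had promoters without them. Iars, which carries the letters too, differed by -0.15 ± 0.13. No promoter was at hand for Lars, and any link between the letters and these differences was not tested. Farsa was the only cytosolic gene above the young mean, at 0.26 ± 0.13 (SE; limma adjusted p = 0.241). In bins of like level, Farsa was above the 90th percentile and Lars below the 10th, and Tarsl2 and, of the mitochondrial genes, Cars2, Ears2 and Pars2 were below it. The mitochondrial genes lay below the median of their bin in 14 of 16 cases and the cytosolic genes in 11 of 18.

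**Figure D3:**
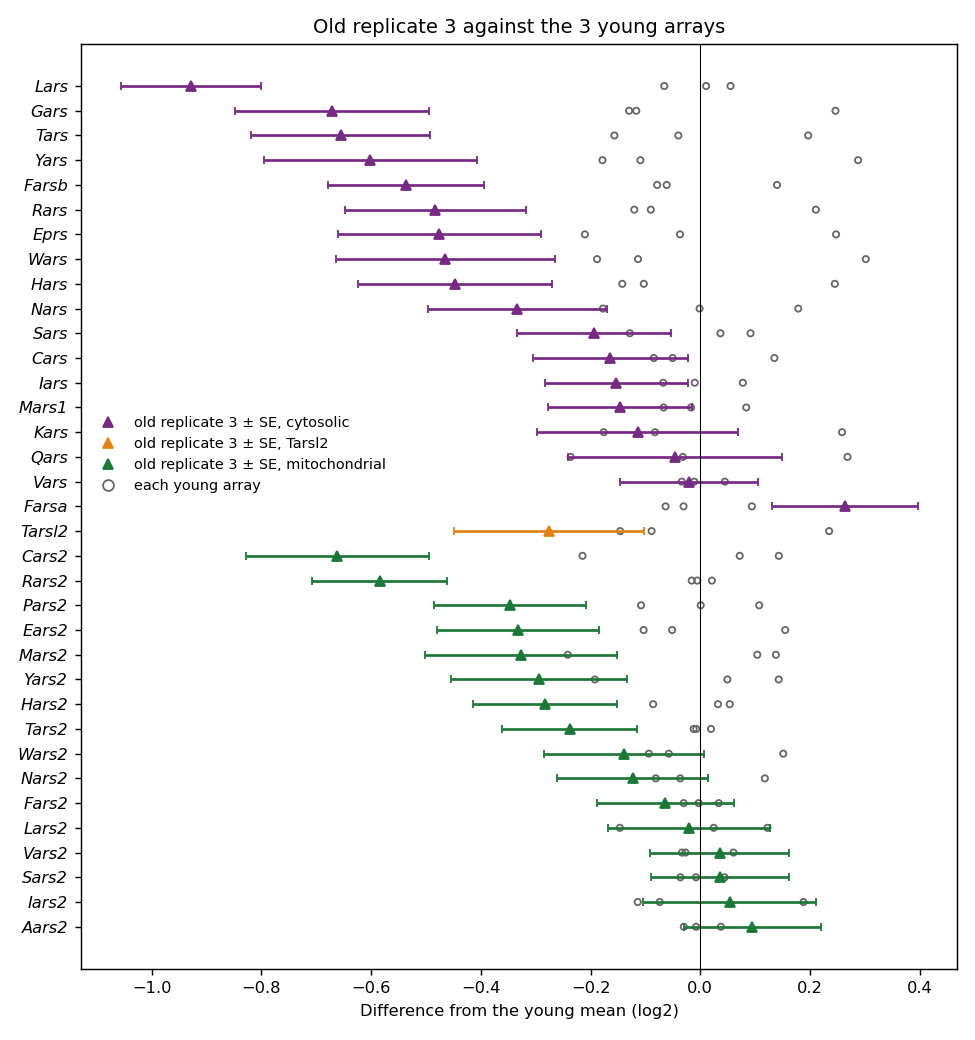
Old replicate 3 minus the young mean (log2, ± SE of the limma fit) for each synthetase as triangles, with the deviation of each young array from the young mean as open circles. Lars and Rars2 lie farthest from their circles, and most other genes lie to the left of 0 by less than 0.7.

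For 6 members the sign on old replicate 3 was opposite to that on old replicates 1 and 2. Tars2 differed by -0.24 ± 0.12 on old replicate 3 (SE; limma adjusted p = 0.254), against the 0.48 given above for old replicates 1 and 2. Ears2 differed by -0.33 ± 0.15 (limma adjusted p = 0.193) against 0.53 ± 0.16 (limma adjusted p = 0.0166). Pars2 differed by -0.35 ± 0.14 (limma adjusted p = 0.158) against 0.46 ± 0.23 (limma adjusted p = 0.105), and Mars2 by -0.33 ± 0.18 (limma adjusted p = 0.268) against 0.21 ± 0.17 (limma adjusted p = 0.273). Lars2 differed by -0.02 ± 0.15 (limma adjusted p = 0.944) against 0.09 ± 0.14 (limma adjusted p = 0.587). Iars2 differed by 0.05 ± 0.16 (limma adjusted p = 0.851) against -0.86 ± 0.20 (limma adjusted p = 0.00692). The difference between the old arrays was not tested.

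The spread among the young arrays moved with the cytosolic genes as a group. Young replicate 3 was the highest of the young arrays in 17 of 18 cytosolic genes and in 7 of 16 mitochondrial genes. The SD over the young arrays was 0.04 to 0.26 for cytosolic and 0.02 to 0.21 for mitochondrial genes. The median cytosolic gene of young replicate 3 was 0.28 above the mean of the other young arrays, which is to be set beside -0.39 for old replicate 3 against all young arrays.

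Of 22 listed partners of the synthetases in tRNA charging 21 were measured, and over all 6 arrays 17 had a lower mean in old cells (15 with quantile normalization), with a median difference of -0.76. None of them passed the test over all 6 arrays. With limma 12 had an unadjusted p under 0.05, all lower, against 10966 of all 23410 probe sets, 5136 of them lower. Without old replicate 3, 15 fell (71.4%) and 0 rose, against 30.2% and 52.2% of all probe sets and 93.9% that fell among those with a young mean above 7. On old replicate 3 all 21 were below the young mean (17 with quantile normalization), and 5 fell (23.8%, against 5.24% of all probe sets and 10.6% to 18.5% in the bins with a young mean between 6 and 8.5). Those 5 came to 0 without young replicate 1, to 1 without young replicate 2 or with quantile normalization, and to 7 without young replicate 3. Mtfmt, which formylates the initiator methionyl-tRNA of mitochondria, read 5.42, 5.36 and 5.39 in old cells and 6.22, 6.30 and 6.09 in young cells. The 3 old arrays lay close together, although old replicates 1 and 2 were not above their receptor level. Mtfmt differed by -0.82 ± 0.19 over all 6 arrays (SE; limma adjusted p = 0.101) and by -0.81 ± 0.14 on old replicate 3 (limma adjusted p = 0.0223).

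The complex's scaffold genes were lower too. Eef1e1 read 4.96, 5.77 and 6.95 in old cells and 7.59, 7.94 and 7.90 in young cells. Aimp2 read 6.21, 6.40 and 6.18 in old cells and 6.81, 6.71 and 6.997 in young cells. Aimp1 read 5.46, 5.85 and 7.49 in old cells and 7.59, 7.66 and 7.97 in young cells. On old replicate 3 Eef1e1 fell by 0.85 ± 0.17 (SE; limma adjusted p = 0.0314) and Aimp2 by 0.66 ± 0.15 (limma adjusted p = 0.0455), while Aimp1 differed by -0.25 (limma adjusted p = 0.383). Over all 6 arrays Eef1e1 differed by -1.92 ± 0.49 (SE; limma adjusted p = 0.101).

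Other genes that handle tRNA or amino acids on it varied. Gatb, Gatc and Dtd2 had higher means in old cells, by 0.20, 0.04 and 0.03 over all 6 arrays, and Aarsd1 and Qrsl1 overlapped between the groups. The 3 that follow were named for their small p or their call on old replicate 3. Dtd1, which removes D-amino acids from mischarged tRNA, read 5.60, 5.99 and 6.23 in old cells and 6.83, 6.87 and 7.16 in young cells. Trnt1, which adds the CCA end that every tRNA needs for charging, read 4.10, 4.58 and 7.38 in old cells and 7.94, 8.18 and 8.22 in young cells. Pstk, a kinase of the route to selenocysteyl-tRNA, read 4.30, 4.40 and 4.72 in old cells and 5.10, 5.43 and 5.49 in young cells. In these 3 genes all old arrays were below all young arrays, and Pstk was not above the receptor level on any old array. On old replicate 3 Trnt1 fell by 0.74 ± 0.15 (SE; limma adjusted p = 0.036) and Dtd1 by 0.73 ± 0.16 (limma adjusted p = 0.0432), and Pstk differed by -0.62 ± 0.18 (limma adjusted p = 0.0731). Over all 6 arrays Dtd1 differed by -1.02 ± 0.25 and Pstk by -0.87 ± 0.23 (SE; limma adjusted p = 0.101 for both).

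The bright cytosolic elongation factors were near the young level on old replicate 3. Eef1a1, which carries charged tRNA to the ribosome, read 6.29, 9.02 and 11.76 in old cells and 11.87, 11.89 and 12.04 in young cells. Its exchange factor subunit Eef1b2 read 5.44, 5.78 and 10.08 in old cells and 10.25, 10.25 and 10.27 in young cells. For Eef1b2, the receptor level gives an array intensity at least 16.1-fold lower on old replicates 1 and 2, where bright signal was low in general. Eef2, which moves the ribosome along, read 5.90, 6.61 and 10.12 in old cells and 10.20, 10.02 and 10.27 in young cells. In all 3 factors, old replicates 1 and 2 were far below the young arrays. Tufm, the mitochondrial factor that carries charged tRNA, has 2 probe sets, of which only the brighter is given. Tufm read 6.04, 5.88 and 6.41 in old cells and 6.85, 6.72 and 7.04 in young cells. By that probe set it was below all young arrays on every old array. Its exchange factor Tsfm read 5.84, 6.55 and 5.36 in old cells and 5.69, 5.91 and 5.94 in young cells. Tufm differed by -0.46 and Tsfm by -0.49 on old replicate 3, and neither passed (limma adjusted p = 0.115 and 0.0883).

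Genes of the integrated stress response did not move one way. Of 30 listed genes 29 were measured, and 0 passed the test over all 6 arrays. With limma 16 had an unadjusted p under 0.05, 9 of them lower, against 10966 of all 23410 probe sets, 5136 of them lower. The median difference of the list was 0.00 (-0.34 with median centring). Without old replicate 3, 10 fell (34.5%) and 9 rose, against 30.2% and 52.2% of all probe sets. On old replicate 3, 1 fell (3.45%, against 5.24% of all probe sets), which came to 0 without young replicate 1, without young replicate 2 or with quantile normalization, and 16 of 29 were below the young mean. Slc3a2, the shared chain of several amino acid transporters, read 5.55, 6.19 and 6.56 in old cells and 7.25, 7.07 and 7.26 in young cells. It was the one that fell on old replicate 3, by 0.64 ± 0.14 (SE; limma adjusted p = 0.0408), and over all 6 arrays it differed by -1.10 ± 0.30 (limma adjusted p = 0.101). Cebpg, a partner of Atf4 on its target genes, read 5.26, 5.96 and 7.67 in old cells and 8.17, 8.21 and 8.38 in young cells. Cebpg differed by -1.96 ± 0.58 over all 6 arrays (limma adjusted p = 0.101) and by -0.58 ± 0.14 on old replicate 3 (limma adjusted p = 0.0513).

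Phgdh and Chac1, of the same list, went the opposite way. Phgdh, the first enzyme of serine synthesis, read 7.56, 7.62 and 6.19 in old cells and 5.41, 5.97 and 5.83 in young cells. Chac1, which breaks down glutathione, read 6.36, 6.63 and 5.34 in old cells and 5.02, 4.95 and 4.90 in young cells. Every old array was above every young array in both genes. Their young means were 5.74 and 4.95. At a young mean of 4 to 6, 4119 of 8611 probe sets lay wholly above the young arrays and 677 wholly below. Phgdh differed by 1.38 ± 0.43 over all 6 arrays (SE; limma adjusted p = 0.101) and by 0.45 ± 0.21 on old replicate 3 (limma adjusted p = 0.22). Chac1 differed by 1.16 ± 0.36 over all 6 arrays (limma adjusted p = 0.101) and by 0.38 ± 0.13 on old replicate 3 (limma adjusted p = 0.11). Atf4 itself read 5.81, 5.57 and 7.16 in old cells and 7.42, 7.51 and 7.41 in young cells. Asns, the asparagine synthetase that Atf4 is known to raise, read 5.26, 5.45 and 5.44 in old cells and 5.45, 5.76 and 6.02 in young cells. The Atf4 element's letters were found in 4 of 27 promoters of this list (14.8%), Chac1 among them.

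**Figure D4:**
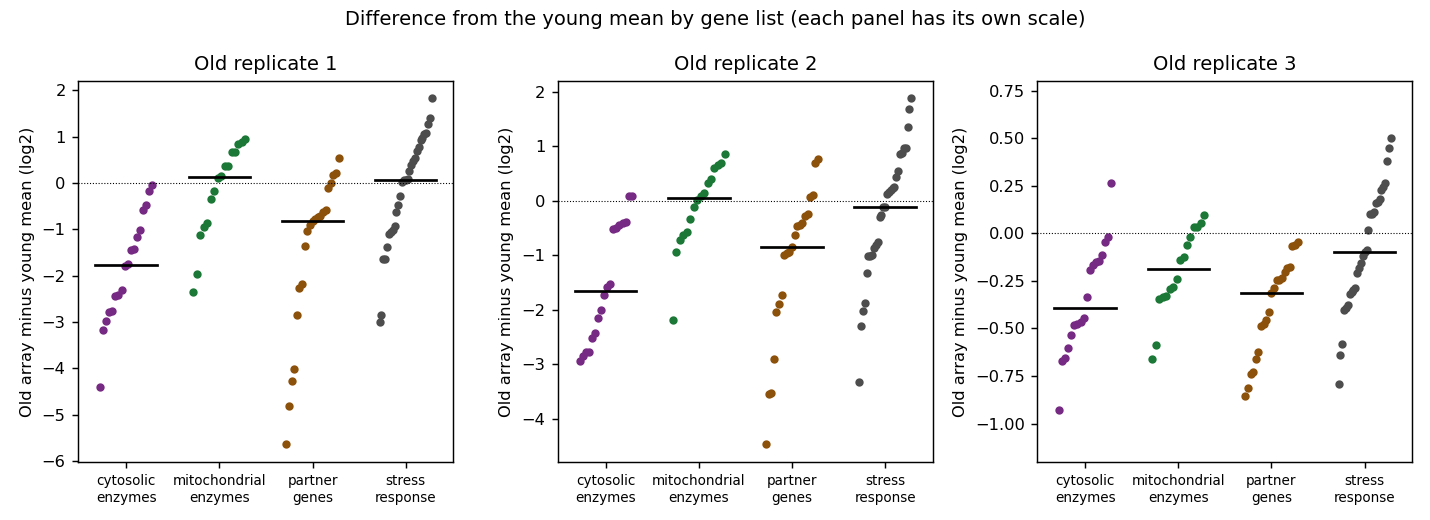
Difference from the young mean (log2) of every gene of 4 lists, in 1 panel for each old array with its own scale: cytosolic synthetases, mitochondrial synthetases, partners in tRNA charging and the integrated stress response. The bar is the list's median, which for the cytosolic synthetases is -1.76, -1.66 and -0.39 and for the mitochondrial synthetases 0.13, 0.05 and -0.19 on old replicates 1, 2 and 3.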

How the data were processed

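Sorted pro-B and pre-B cells of 3 old and 3 young samples were measured on 6 whole-transcript arrays. The authors deposited linear intensities (3.58 to 8502). The submitters' processing notes name RMA, with no version or setting. The platform annotation, which may be old, gives 1 gene for 21789 of 28940 probe sets, several for 1621 and no gene for 5530. The log2 of each deposited intensity was taken, and the 23410 probe sets with a gene entered a limma fit (version 3.58.1, R 4.3.3; age group as the only factor, 2-sided, Benjamini-Hochberg over all of them, adjusted p under 0.05). The fit was repeated without old replicate 3 and for old replicate 3 alone against the young arrays, and the lone array was then assumed to vary like the young. Tables came from pandas 2.3.3 and numpy 2.4.6 under Python 3.11.15, and plots from matplotlib 3.10.9. The fit was tested on simulated data.

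The receptor level is the 95th percentile of 1210 single-gene olfactory and vomeronasal receptor probe sets on an array, and a bound sets each old value at or above it. Promoters were RefSeq's, and the motif was searched on both strands. The members and lists were chosen with earlier results of these data known. Every member is given by its values. Full statistics are for the 6 with the smallest p, the 6 with the largest difference on old replicate 3, those that turn sign between old arrays and 4 genes of each other list; other statistics were chosen after the values were seen. The labels do not say that replicate numbers pair mice, yet same-numbered samples deviated together (r = 0.157, 0.15 and 0.279, all over 0.1), and a fit with a replicate block was run. Old replicate 1 with young replicate 2 (0.153) and old replicate 2 with young replicate 1 (0.141) deviated together as much, so for these the number carries no pairing of its own. Other alternatives were array weights, median centring, quantile normalization, trended robust moderation, all or fewer probe sets, other thresholds and leaving out each array. The number of arrays limits the precision.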

Additional observations from a re-analysis of the deposited data

How the results depend on the processing

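With 3 arrays a group, of which old replicates 1 and 2 had compressed signal, the calls depended on how the old arrays were weighted. Members called over all 6 arrays numbered 0; with array weights 25 were called (71.4%, against 85.4% of all probe sets), and leaving out each array in turn gave 0 to 25, the 25 without old replicate 3, where 82.4% of all probe sets were called. Partner genes called numbered 16 with array weights and 0 to 15 when each array was left out, and integrated stress response genes 20 and 0 to 19; in each case the highest count was without old replicate 3. With the replicate block 0 members were called, with a smallest adjusted p of 0.081 by limma, and the block changed no call. On old replicate 3, 2 members were called, 6 with median centring, 1 with quantile normalization, 5 with trended robust moderation, and 0 to 7 when each young array was left out, 0 without young replicate 1 and 7 without young replicate 3. The mitochondrial median of 0.04 was -0.30 with median centring, -0.0702 with quantile normalization and -0.0668 to 0.13 when each array was left out, below 0 without old replicate 1, old replicate 2 or young replicate 2, and on old replicate 3 the median of -0.19 was -0.32 with median centring, -0.13 with quantile normalization and -0.21 to -0.18 when each young array was left out. The cytosolic median over all 6 arrays was -1.19 with quantile normalization and -1.60 with median centring, and on old replicate 3 it was -0.17 and -0.52. Of single members, none of them called over all 6 arrays, the sign turned with array weights for Cars (0.0437), Nars2 (0.14) and Wars2 (-0.25). With median centring it turned for Farsa (-0.25), Ears2 (-0.10), Lars2 (-0.30), Mars2 (-0.31), Pars2 (-0.16), Tars2 (-0.11) and Wars2 (-0.28). With quantile normalization it turned for Iars (0.51), Mars1 (0.38), Vars (0.46), Ears2 (-0.0653), Lars2 (-0.36), Nars2 (0.0011) and Pars2 (-0.24). Leaving out 1 array gave -0.0224 to 0.11 for Lars2, -0.11 to 0.21 for Mars2, -0.14 to 0.012 for Nars2, -0.13 to 0.46 for Pars2 and -0.24 to 0.27 for Wars2. Median centring moved the median of all probe sets over the 6 arrays to 0.00 and quantile normalization to 0.05, against 0.35 as deposited. On old replicate 3, the share of all probe sets called rose with median centring, with trended robust moderation and without young replicate 3. It fell with quantile normalization and without young replicate 1. In each of these settings the share moved in the same direction as the count of members. Without young replicate 2 the share fell too, while the count of members stayed the same. The cause of the changes between settings was not tested.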
